A study of Sus scrofa with 2 samples.

Results

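The genes described here are the cytokines, chemokines and their receptors of the pig endometrium. They were taken by symbol from the gene list of the deposited matrices: every feature whose symbol starts as a CC, CXC or CX3C chemokine or chemokine receptor, an interleukin or interleukin receptor, or a TNF or TNF receptor superfamily member, apart from 5 matching features that the rule sets aside. That gave 101 features (98 symbols) of the 26881 in the matrices, of which 16128 carry no symbol. IL28B stands for 3 of the features and TNFRSF4 for 2.

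Cytokines are secreted or membrane-bound proteins that carry signals between immune cells and the tissue around them. Chemokines attract leukocytes through G-protein-coupled receptors, most interleukins signal through paired receptor chains and JAK-STAT, and TNF family ligands engage receptors that feed into NF-kB and, for some, caspases. In the uterus these genes are known for recruiting macrophages and lymphocytes to the implantation site, and in the pig for the exchange of interleukin-1 family signals between conceptus and endometrium.

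The study profiled endometrial cells of 2 Yorkshire sows, both 3 years old and said to be alike in genetic background, by droplet 3' single-cell RNA sequencing. The library named EL (embryo loss) came from a sow with an earlier abortion and 3 failed artificial inseminations in a row, and no stage of the cycle is stated. The library named EIS (successful embryo implantation) came from a sow at day 30 after insemination, so pregnancy stage and reproductive history differ together and cannot be told apart. Each group is 1 sow and 1 library, with tissue taken from the uterine horns. No test between the groups is therefore possible, and every interval below is a 95% interval for counting error only.

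The EL and EIS libraries held 10936 and 8848 barcodes with 43302286 and 36069473 unique molecular identifiers (UMIs, counts of captured transcripts), and 9864 and 8068 cells were kept, with medians of 2345.5 and 2240.5 UMIs. Only 24 kept barcodes occurred in both libraries. Cells were sorted into classes by their marker genes: EL gave 6014 epithelial, 1920 ciliated, 231 T or NK, 108 macrophage, monocyte or dendritic (macrophage for short) and 76 stromal cells. EIS gave 678, 314, 441, 523 and 1106 of these, and also 373 vascular endothelial, 165 smooth muscle and 1520 trophoblast-like cells. A further 1066 EIS cells lacked enough markers for any non-epithelial class and had at least 30% of UMIs from the gland secretion genes SLPI, ACP5 and UABP-2 (SLPI-rich). These were set apart before the epithelial class was filled, and EL had 0 of them. Trophoblast, which expresses the pregnancy-associated glycoprotein PAG6, belongs to the conceptus, and EL held 0 of 9864 such cells, which allows a share of up to 0.0304% (3 counts of the total). The 3 secretion genes took 23.0% of all UMIs in EIS and 0.034% in EL, and they were present in every EIS class, from a median of 1.05% of a ciliated cell's UMIs to 19.5% of a smooth muscle cell's and 50.4% of an SLPI-rich cell's. Free RNA in the droplets was not measured, since no empty droplets were analysed here, so for several members the level in the whole library is given beside that in a class.

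Of the 101 members, 13 had no UMI in either library, among them CCL1, CCL22, CXCL11, IL9 and IL12B. A further 20 had 1 to 19 UMIs in all, and 68 had 20 or more. By role, 11 of 19 chemokines, 12 of 13 chemokine receptors, 11 of 24 interleukins, 15 of 18 interleukin receptors, 7 of 9 TNF family ligands and 7 of 10 TNF receptors reached 20 UMIs. Levels are given as CPM (UMIs scaled to a sum of 1000000) of the summed UMIs of a class. The method counts transcript ends, so levels of different genes were not divided by transcript length. CXCL2 and CCL4 belong to groups of close gene copies, and how reads shared between copies were counted is not given in the sources used here.

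**Figure D1:**
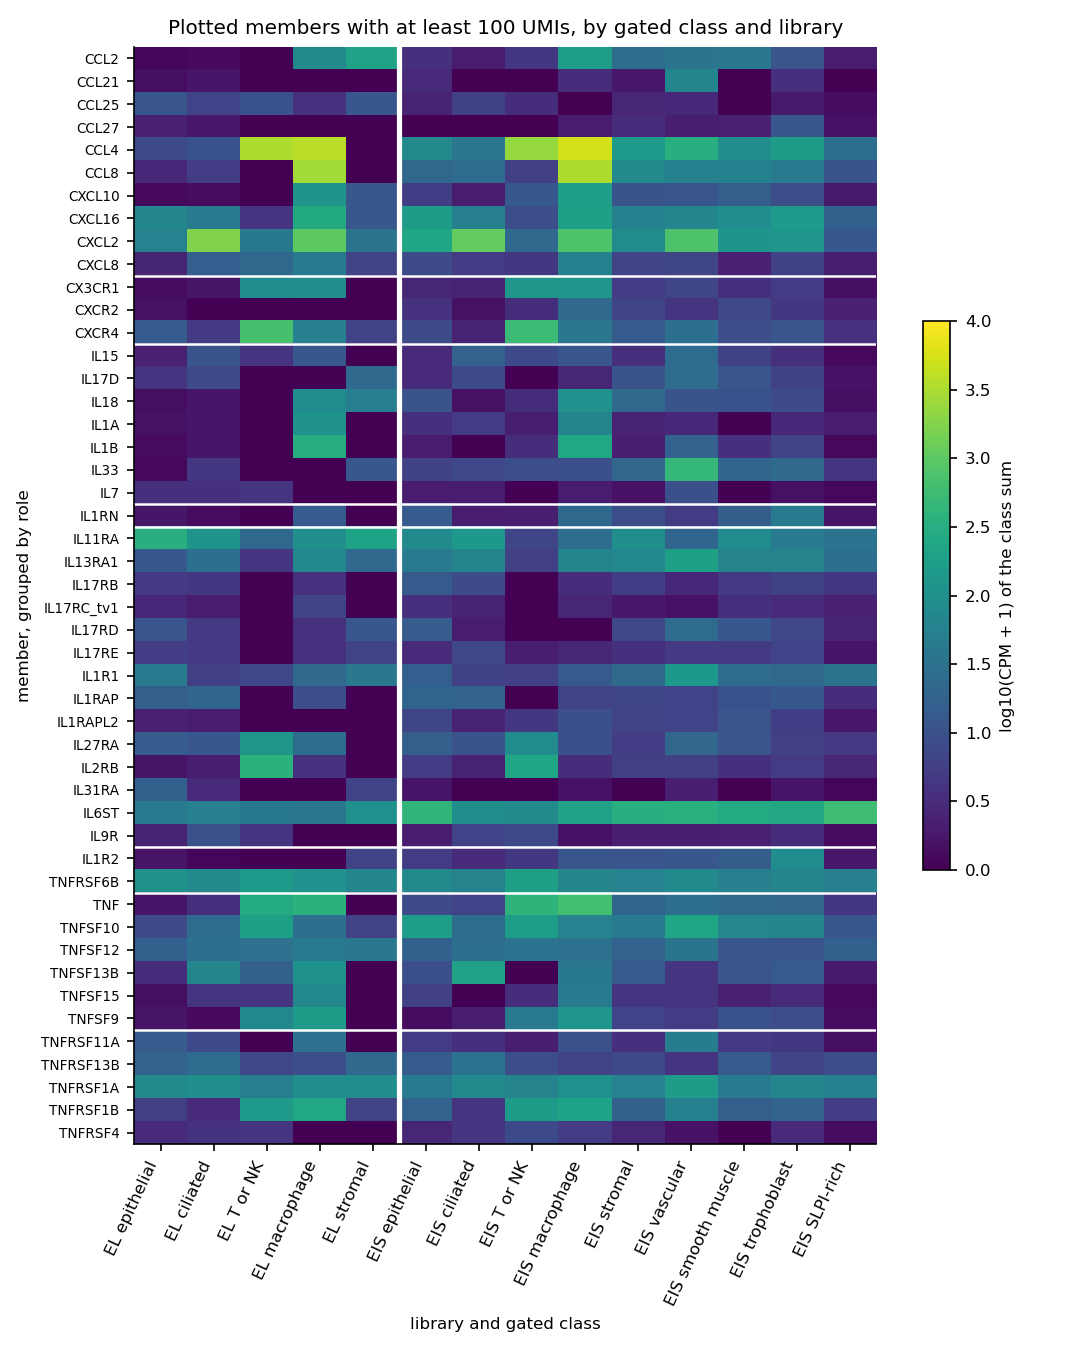
Levels of 48 members with at least 100 UMIs over the plotted classes, as log10(CPM + 1) of the summed UMIs, with members in rows grouped by role and library and class in columns. The brightest cells are CCL4 and CCL8 in macrophages, CCL4 in T or NK cells and CXCL2 in ciliated cells, in both libraries.

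Among the chemokines, CXCL2 (ENSSSCG00025017022), a neutrophil attractant, was the most abundant member of the EL library, with 16067 UMIs. It was led by ciliated cells in both sows, at 1724 CPM (1695 to 1753) in EL and 1089 CPM (1043 to 1135) in EIS, and these cells held 85.5% of its UMIs in EL and 27.9% in EIS. CXCL2 had a UMI in 56.3% of EL and 55.7% of EIS ciliated cells, or 41.1% and 33.9% when each cell was thinned to 1000 UMIs, against 3.03% and 3.85% of T or NK cells before thinning. Median depths were 4181 and 6361 UMIs in ciliated cells and 1331 and 1799 in T or NK cells. Macrophages followed with 968 CPM in EL and 796 in EIS, and EIS vascular endothelium held 771 CPM (730 to 814). CXCR2, the receptor that CXCL2 and CXCL8 share, was sparse in EL (25 UMIs). In EIS it had 237 UMIs and was highest, at 53.1 CPM (35.0 to 77.3, 27 UMIs), in 51 cells that passed the neutrophil gate. The 10 leading genes of those cells held the gate's own PGLYRP1 and S100A9 beside AQP8, AKR1C3 and others that are no neutrophil markers of the list, so the group is left unnamed. CXCR2 reached 23.3 CPM in macrophages and 26.3 CPM in cells that no class took.

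CCL4 (ENSSSCG00025020949), which attracts T cells and monocytes, was the most abundant member of the EIS library with 15956 UMIs, against 2893 in EL. Macrophages held 3804 CPM (3606 to 4010) in EL and 5547 CPM (5439 to 5657) in EIS, and T or NK cells held 3199 CPM (3007 to 3401) and 2315 CPM (2214 to 2420). The order of these classes was the same in both sows, and their intervals did not overlap.

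CCL8 (ENSSSCG00025015859), which attracts monocytes through several CC receptors, lay mostly in 1 class. Macrophages held 90.6% of its UMIs in EL and 82.4% in EIS, at 2756 CPM (2588 to 2932) and 3211 CPM (3129 to 3295). It was at 0 UMIs in EL T or NK and EL stromal cells, and in EIS every plotted class had some, down to 4.7 CPM in T or NK cells. CXCL16, a membrane-bound chemokine, was spread over macrophages (272 CPM in EL, 182 in EIS), EIS epithelium (163 CPM) and trophoblast (142 CPM). Its receptor CXCR6 was found at 37.4 CPM (12 UMIs) in EL T or NK cells and at 2.35 CPM (2 UMIs) in EIS T or NK cells, with 16 of its 24 EIS UMIs in trophoblast.

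Stromal cells were too few in EL for a comparison, and their leading members are given side by side. CCL2, a monocyte attractant, stood at 203 CPM (142 to 282, 36 UMIs) in 76 EL stromal cells and at 25.8 CPM (20.8 to 31.7) in 1106 EIS stromal cells. IL11RA was at 209 CPM (37 UMIs) against 93.3 CPM, and IL6ST at 102 CPM (18 UMIs) against 317 CPM.

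**Figure D2:**
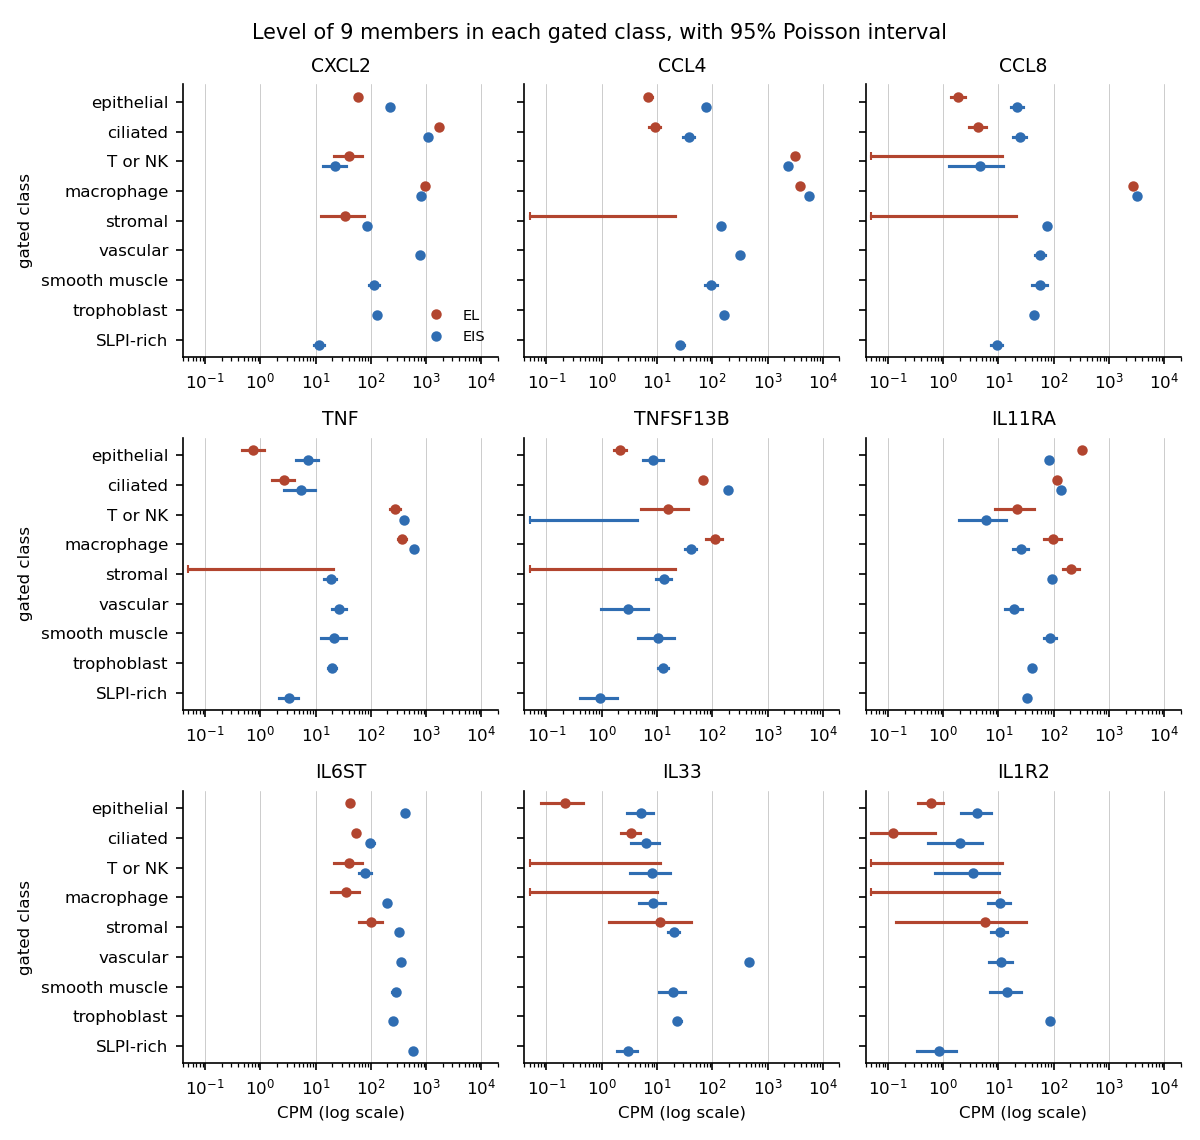
CPM of 9 members by gated class on a log axis, 1 point per library with its 95% Poisson interval (EL red, EIS blue; a tick at the left edge stands for 0 UMIs, and the 51 neutrophil-gated cells are not plotted). CCL4, CCL8 and TNF peak in leukocyte classes, CXCL2 in ciliated cells, TNFSF13B in EIS ciliated and EL macrophage cells, IL33 in EIS vascular cells and IL1R2 in trophoblast.

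The interleukin receptors were led by 2 chains of the interleukin-6 family, and each was dominated by 1 sow. IL11RA (ENSSSCG00025052029), the ligand-binding receptor of IL11, had 10637 UMIs in EL and 1834 in EIS. Among the EL classes its level was highest in epithelial cells at 322 CPM (316 to 329), with 372 CPM in cells that no class took. In the epithelial class 58.4% of cells had a UMI against 2.60% of EL T or NK cells (median depths 2849.5 and 1331 UMIs). IL6ST (gp130, ENSSSCG00025051264), the signalling chain that IL11RA needs, had 1779 UMIs in EL and 12520 in EIS. It was highest in the EIS SLPI-rich cells, at 581 CPM (564 to 597) and 39.4% of that library's IL6ST UMIs. IL11 itself had 1 UMI in EL and 52 in EIS, 17 of them in stromal cells at 4.82 CPM (2.81 to 7.72).

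The interleukin-1 family split by cell type. IL1B, the secreted inflammatory form, was at 308 CPM (254 to 371) in EL and 239 CPM (217 to 263) in EIS macrophages, and at 17.3 CPM or less in the other classes described. Trophoblast held the 2 members that restrain interleukin-1: the decoy receptor IL1R2 (ENSSSCG00025029612) at 87.2 CPM (80.6 to 94.2), with 78.8% of that gene's EIS UMIs, and the receptor antagonist IL1RN at 43.4 CPM (38.8 to 48.4), with 62.8%. Both were higher in the trophoblast cells with a UMI of CYP11A1, the enzyme that starts steroid synthesis, than in those without: 101 against 41.3 CPM for IL1R2, with intervals that did not overlap, and 45.4 against 36.6 CPM for IL1RN, with intervals that did. Median depths of these cells were 4371 and 2538 UMIs. EL held 19 UMIs of IL1R2 and 40 of IL1RN in all.

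IL33 (ENSSSCG00025045524), a nuclear alarmin of the same family, was at 459 CPM (427 to 493) in EIS vascular endothelium, 12.9 times its level in the whole library and 64.8% of its UMIs. Its receptor IL1RL1 had 8 UMIs in EL and 9 in EIS. The vascular class also led for the signalling receptor IL1R1 among the EIS classes (135 CPM, 118 to 154) and for IL13RA1 (186 CPM). It led as well for TNFRSF11A, the receptor known as RANK (47.0 CPM), and for CCL21, which guides lymphocytes and dendritic cells (68.5 CPM). Lymphatic markers, among them its leading gene SOX18, summed to 1662 CPM in this class against 132 CPM in the EIS library. The 13 EIS cells gated as lymphatic were too few to be described. Besides IL1R2 and IL1RN, trophoblast held 80.4% of the EIS UMIs of CCL27, with 82 UMIs. CXCL2, CCL4 and IL6ST were also among the top levels in trophoblast, at 128, 163 and 254 CPM, but at 0.544, 0.341 and 0.680 of their level in the whole library.

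TNF (ENSSSCG00025077751), the founding cytokine of its family, was led by macrophages at 366 CPM (306 to 434) in EL and 612 CPM (577 to 650) in EIS, then by T or NK cells at 278 CPM (223 to 342) and 401 CPM (359 to 446). Its high-affinity inducible receptor TNFRSF1B followed the same classes, at 242 and 212 CPM in EL and EIS macrophages and 140 and 154 CPM in T or NK cells. TNFRSF1A, the broadly expressed receptor, ranged only from 42.5 CPM in EIS smooth muscle to 156 CPM in EIS vascular cells over the classes plotted. The decoy receptor TNFRSF6B ranged from 54.1 to 187 CPM over the same classes, and both stood at 49.2 CPM in the 51 neutrophil-gated cells, which are not plotted. TNFSF13B (BAFF, ENSSSCG00025047928), a B cell survival factor, was highest in EIS ciliated cells at 194 CPM (175 to 214), and in EL it was led by macrophages at 110 CPM, ahead of ciliated cells at 67.9 CPM. Its receptor TNFRSF13B was highest in ciliated cells of both sows, at 23.6 CPM (20.3 to 27.2) and 32.3 CPM (24.9 to 41.1).

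**Figure D3:**
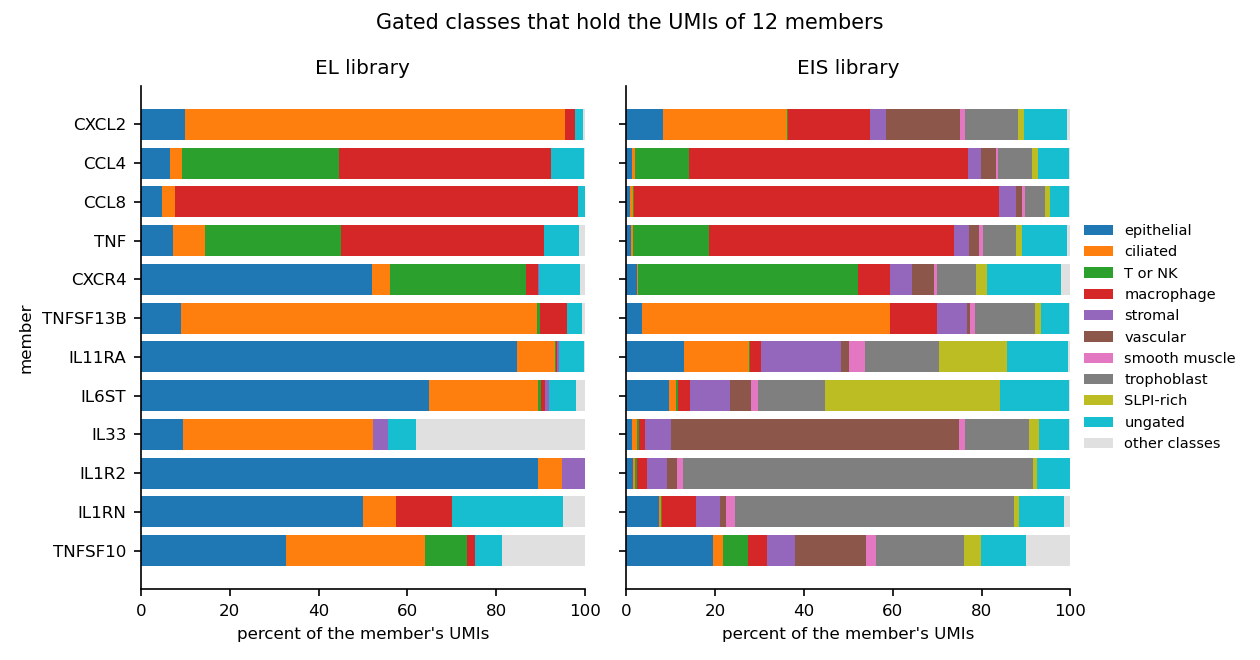
Percent of the UMIs of 12 members that fell in each gated class, by library, as stacked bars that sum to 100. In EL the ciliated class held 85.5% of CXCL2 and the epithelial class 84.6% of IL11RA, while in EIS macrophages held 62.6% of CCL4 and vascular cells 64.8% of IL33.

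The 4 classes with at least 100 cells in both libraries were compared. A feature with at least 20 UMIs in the class was tested, and a member was called where its EL to EIS ratio lay at least 2-fold from the median ratio of all features tested in the class, with its counting interval on the same side. This measures the 2 libraries, not the 2 conditions. Over the 4 classes 58 members were tested at least once and 29 were called at least once. The share of all features called at least once is not given, so these counts are no result about the members. Shares over all features are given per class below. Folds below are relative to the median gene. Its own log2 ratio of EL over EIS was 0.41 in epithelial, 0.07 in ciliated, 0.09 in T or NK and 0.17 in macrophage cells.

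**Figure D4:**
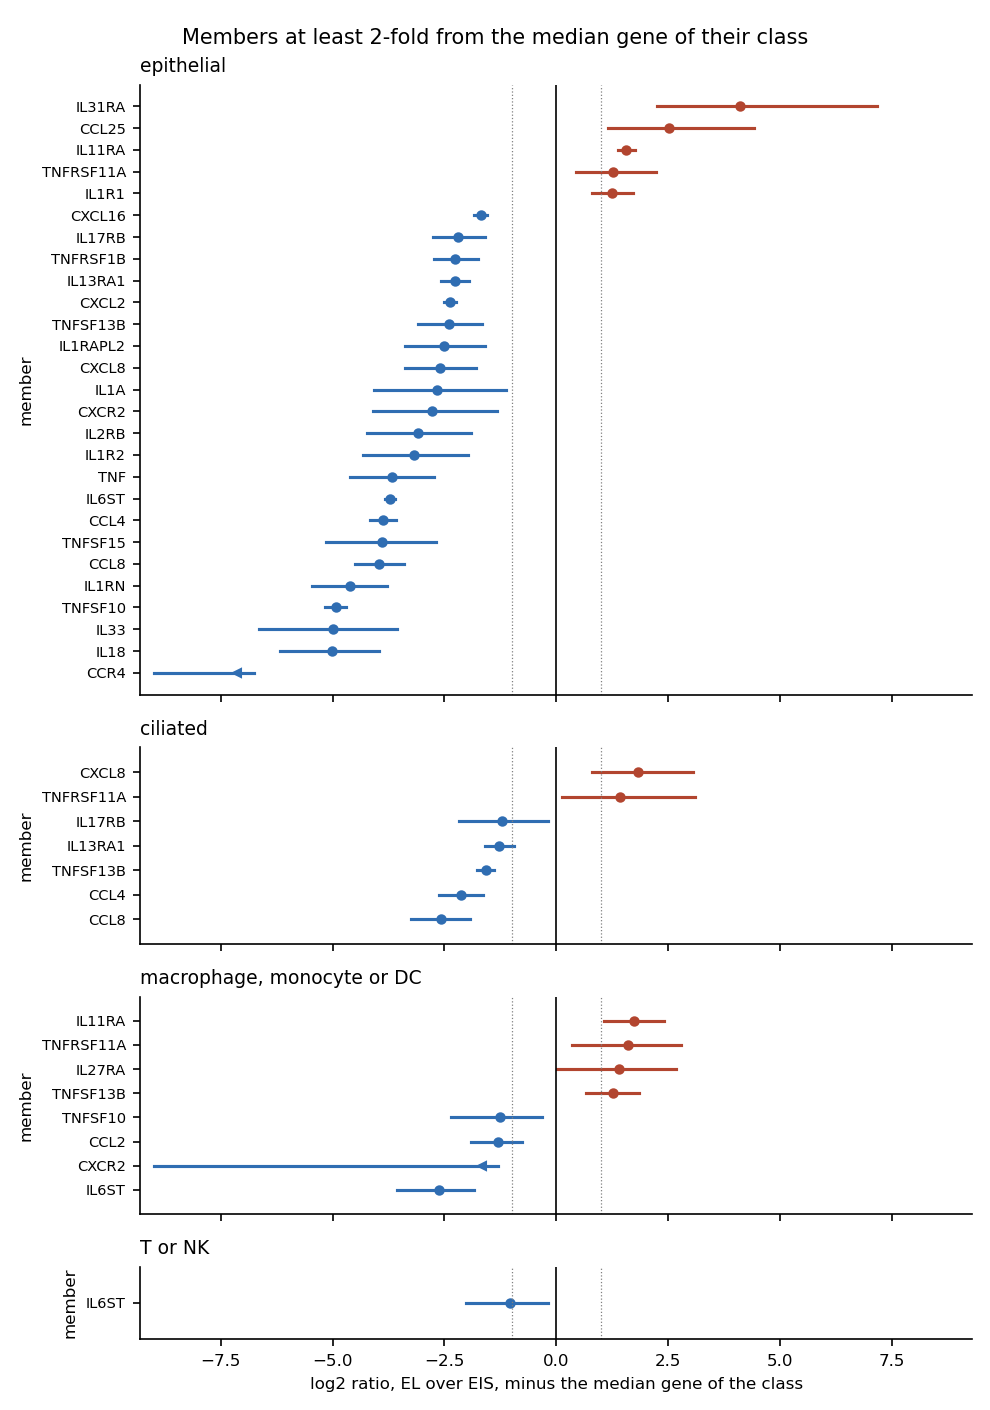
Log2 ratio of EL over EIS minus that of the median gene for each called member, by class, with its 95% counting interval (red higher in EL, blue higher in EIS; a triangle marks a bound where EL had 0 UMIs, and the dotted lines mark 2-fold). The epithelial class holds 27 of the 43 calls, 22 of them higher in EIS.

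In epithelial cells most called members were higher in EIS, ligands and receptors alike. Of 46 members tested, 22 were higher in EIS, where 17.5% of all features tested were called, and 5 were higher in EL, against 11.2% of all features. The median member lay at a log2 of -0.98 from the median gene, against -0.04 over all features tested. The ligands higher in EIS included 5 of 8 chemokines, 3 of 6 interleukins and 4 of 5 TNF family ligands. Of 25 receptors and decoy receptors tested, 9 were higher in EIS and 4 in EL.

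The epithelial cells of the 2 sows differed in their leading genes. EL epithelium was led by UPTI, HPGD and CYP26A1, and EIS epithelium by SAL1, TMEM213 and S100A2. Several lists of other cells' markers were also higher in the EIS class: 9 of 11 macrophage markers had UMIs in each library, with MRC1 and VSIG4 at 0 in EL and FLT3 and MARCO at 0 in EIS, and they summed to 16.9 CPM in EL and 105 in EIS. Stromal markers summed to 135 CPM (6 of 7 with UMIs, TCF21 at 0) and 743 CPM (7 of 7), and trophoblast markers to 4.01 CPM (7 of 10, with CDX2, HAND1 and TFAP2C at 0) and 432 CPM (10 of 10). Neutrophil markers summed to 22.9 and 216 CPM, and smooth muscle markers to 4.12 and 289 CPM. Only the mast and B cell lists summed to more in EL. The mast list held 2 markers, too few for a gate. It came to 196 CPM in EL, all from 1 marker with FCER1A at 0, and to 64.7 CPM in EIS. B cell markers stood at 7.31 CPM (5 of 5) and 5.85 CPM (4 of 5, PAX5 at 0). The part of these other-cell transcripts in the calls was not tested. The comparison was repeated with only the 203 EIS epithelial cells with under 5% of UMIs from SLPI, ACP5 and UABP-2. There 17 of the 22 members higher in EIS and 4 of the 5 higher in EL were also called, and 2 were no longer tested. The share over all features in that setting is not given. The cells are part of those compared above, so this is no independent check. Thinning cells to 1000 UMIs left 11 members called towards EIS and 2 towards EL, without the share over all features at that depth beside them.

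Among the epithelial chemokines, CXCL16 stood at 67.1 CPM (64.1 to 70.3) in EL and 163 CPM (149 to 178) in EIS, a 3.23-fold difference (2.92 to 3.58). CXCL2 stood at 57.4 and 225 CPM, 5.22-fold higher in EIS (4.75 to 5.72), and 6.73-fold among the low-secretion cells. CCL8 and CCL4 were 15.5-fold (10.6 to 22.8) and 14.7-fold (12.1 to 17.9) higher in EIS. Both were far below their library levels in these cells, however, with CCL8 at 0.103 and CCL4 at 0.16 of the EIS library level, and in the low-secretion cells CCL8 was no longer called (1.65-fold, 4 UMIs in EIS) and CCL4 fell to 2.33-fold. CCL25, which attracts gut-homing lymphocytes through CCR9, was 5.77-fold higher in EL (2.23 to 21.3), at 10.6 against 1.38 CPM (4 UMIs), and was no longer called among thinned cells. CCR9 had 7 UMIs in EL and 9 in EIS, 4 and 5 of them in T or NK cells.

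The chemokine receptor CCR4 (ENSSSCG00025018960), known from skin-homing and regulatory T cells, had 0 UMIs in 6014 EL epithelial cells and 33 UMIs (11.4 CPM) in 678 EIS ones. Counted against a floor of 3 UMIs in EL, it was 141-fold higher in EIS, which leaves out the counting error of the 33 UMIs. All 118 CCR4 UMIs of the kept cells were in the EIS library, and T or NK cells held 2 of them. The 51 EIS cells that passed the neutrophil gate held 18, at 35.4 CPM (21.0 to 56.0). The same cells held TNFSF10 at 459 CPM (402 to 521), CXCL16 at 211 CPM and CXCL8 at 94.5 CPM. The CCR4 ligands CCL17 and CCL22 had 1 and 0 UMIs.

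Among the epithelial interleukins and their receptors, IL31RA (ENSSSCG00025052081) was 17.3-fold higher in EL (4.77 to 143), with 443 UMIs (15.9 CPM) against 2 UMIs. It forms the receptor for the itch cytokine IL31 with the oncostatin M receptor. IL11RA was 2.97-fold higher in EL (2.61 to 3.39), at 322 against 81.6 CPM, and IL1R1 2.36-fold (1.74 to 3.29), at 45.4 against 14.5 CPM, though thinning ended the IL1R1 call. In the other direction IL6ST was 13.2-fold higher in EIS (12.2 to 14.3), at 41.3 against 410 CPM, and 3.36-fold among the low-secretion cells, where its EIS level was 98.9 CPM. The antagonist IL1RN was 24.3-fold higher in EIS (13.8 to 44.1), at 0.716 against 13.1 CPM, and the T-helper 2 receptor chain IL13RA1 4.83-fold (3.89 to 5.96), at 11.7 against 42.3 CPM. In this class the receptor for interleukin-11 and the chain it signals through lay on opposite sides of the median gene.

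Among the epithelial TNF family genes, TNFSF10 (TRAIL, ENSSSCG00025020837), which can trigger cell death, had the most EIS UMIs: 7.23 CPM (202 UMIs) in EL and 166 CPM (483 UMIs) in EIS, 30.6-fold higher in EIS (25.9 to 36.2). Its EIS level was 2.26 times that of the whole library, and the fold was 42.0 among the low-secretion cells. TNFRSF11A was 2.41-fold higher in EL (1.36 to 4.71), at 13.3 against 4.13 CPM, and missed the rule among the low-secretion cells at 1.57-fold. Its ligand TNFSF11 had 2 UMIs in EL and 4 in EIS.

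Ciliated cells had fewer calls than epithelial cells, among members and over all features tested alike. Of 33 members tested, 5 were higher in EIS, against 5.03% of all features, and 2 were higher in EL, against 4.2%. All 7 were also called among the low-secretion cells, which are part of the same cells, without the share over all features there beside them. TNFSF13B was the best measured, with 541 UMIs (67.9 CPM) in EL and 390 (194 CPM) in EIS, 2.99-fold higher in EIS (2.62 to 3.41), and at 3.88 and 9.29 times its library levels. IL13RA1 was 2.42-fold higher in EIS (1.93 to 3.03), at 27.5 against 63.6 CPM. CCL8 and CCL4 were 5.97-fold (3.78 to 9.54) and 4.38-fold (3.13 to 6.13) higher in EIS, but at 0.116 and 0.079 of their EIS library levels. CXCL8 was 3.53-fold higher in EL (1.73 to 8.36), at 14.7 against 3.97 CPM (8 UMIs), and TNFRSF11A 2.70-fold (1.09 to 8.64). The CXCL8 call was lost without doublet removal and among thinned cells. In this class the stromal markers came to 92.9 CPM (EL) and 598 CPM (EIS), with 6 of 7 having UMIs and TCF21 at 0 in both, and trophoblast markers to 14.8 CPM (5 of 10) and 241 CPM (9 of 10, CDX2 at 0). CXCL2, the leading member, was 1.51-fold above the median gene in EL (1.45 to 1.58) and was not called. The TNF receptor TNFRSF1A and the decoy TNFRSF6B were not called either: TNFRSF1A stood at 93.1 and 75.0 CPM and TNFRSF6B at 80.8 and 59.6 CPM.

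In macrophages 8 members were called, and TNF, CCL4, CCL8, IL1B and CXCL2 were not among them. Of 33 tested, 4 were higher in EIS, against 6.77% of all features, and 4 were higher in EL, against 5.73%. CCL2 was 2.47-fold higher in EIS (1.69 to 3.76), at 79.8 against 175 CPM. IL6ST was 6.20-fold higher in EIS (3.58 to 11.8), at 35.8 CPM (13 UMIs) against 197 CPM, which was 0.527 of its EIS library level. TNFSF13B was 2.41-fold higher in EL (1.60 to 3.60), at 110 against 40.5 CPM, and IL11RA 3.35-fold (2.1 to 5.31), at 96.3 against 25.5 CPM, which were 0.349 and 0.466 of its library levels. Thinning ended the calls of CCL2, TNFSF13B and IL11RA. Among the low-secretion cells (107 in EL, 235 in EIS), 3 of the 4 members higher in EIS and 1 of the 4 higher in EL were also called. There 8 of 32 members tested were called towards EIS and 1 towards EL, without the share over all features in that setting beside them. CXCR2 had 0 UMIs in EL and 42 in EIS. Against a floor of 3 UMIs it was 3.18-fold higher in EIS, which leaves out the counting error of the 42 UMIs. The folds of TNF, CCL4 and CCL8 were 1.88, 1.64 and 1.31 towards EIS, and those of IL1B and CXCL2 1.14 and 1.08 towards EL.

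The macrophage-gated cells of the 2 sows also differed in 2 genes that are markers of the gate itself. A UMI of MRC1 or LYVE1, genes of tissue-resident macrophages, was found in 6 of 108 EL cells and in 257 of 523 EIS cells. Median depths of the class were 1441 UMIs in EL and 2398 in EIS, and the part of depth or free RNA in this was not tested. In EIS the cells with such a UMI held most of the CCL2, at 287 CPM (255 to 322) against 27.2 CPM (16.8 to 41.5) in those without. IL1B was lower in them, at 40.9 against 503 CPM, as were CXCL2 at 127 against 1685 CPM, TNF at 249 against 1095 CPM, and the T cell co-stimulator TNFSF9 at 3.89 against 282 CPM. CCL4 and CCL8 were abundant on both sides of the split, at 3798 against 7871 CPM and 2705 against 3884 CPM, and IL6ST was higher in the cells with such a UMI, at 235 against 147 CPM. Median depths of these EIS cells were 2404 UMIs with and 2266 without.

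Comparing only the cells without MRC1 or LYVE1 (102 in EL, 266 in EIS), a split chosen after the values were seen, turned CCL2 round. It was then 2.57-fold higher in EL (1.40 to 4.78), at 78.6 against 27.2 CPM. Of the members tested there, 8 were higher in EIS, against 7.72% of all features, and 2 were higher in EL, against 7.42%. TNF was 3.21-fold higher in EIS (2.67 to 3.88), at 384 against 1095 CPM, CXCL10, an interferon-induced lymphocyte attractant, 3.32-fold (2.35 to 4.80), and CCL4 2.45-fold (2.31 to 2.61), at 3613 against 7871 CPM. TNFSF13B, at 111 and 87.9 CPM, was no longer called. Over the whole macrophage class the stromal markers came to 27.5 CPM in EL (3 of 7, with COL1A1, COL1A2, POSTN and TCF21 at 0) and 1641 CPM in EIS (6 of 7, TCF21 at 0), and epithelial markers to 1257 and 924 CPM, and their part in the result was not tested.

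**Figure D5:**
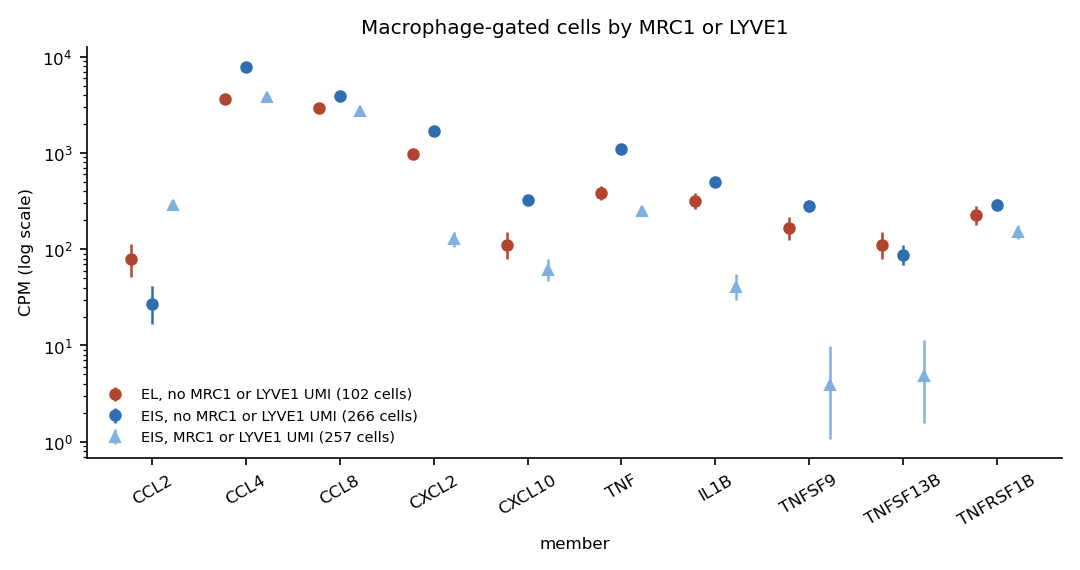
CPM of 10 members on a log axis in macrophage-gated cells, split by whether a cell had a UMI of MRC1 or LYVE1, with 95% Poisson intervals (the 6 EL cells with one are not shown). CCL2 is highest in the EIS cells with MRC1 or LYVE1, while CXCL2, TNF, IL1B and TNFSF9 are highest in the EIS cells without.

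T or NK cells had the fewest calls. They also had the lowest shares over all features and the fewest UMIs of the 4 classes, 320680 in EL and 850872 in EIS. The order of the classes is therefore no result about the members alone. Of 18 members tested, 0 were higher in EL, against 2.98% of all features, and 1, IL6ST, was higher in EIS, against 3.47%. IL6ST was 2.06-fold higher (1.13 to 4.07), at 40.5 CPM (13 UMIs) against 78.7 CPM, which was 0.211 of its EIS library level. It was not called once 10% of each class sum was removed as free RNA, or among the low-secretion cells. The members that lead this class were within 2-fold: CCL4 at 1.3-fold (1.21 to 1.4) and CXCR4, the homing receptor for CXCL12, at 1.23-fold (1.04 to 1.45), both towards EL. CXCR4 stood at 695 CPM (607 to 793) in EL and 532 CPM (484 to 584) in EIS. CXCL12 had 51 UMIs in EL and 42 in EIS and was highest in EIS vascular cells, at 7.74 CPM. IL2RB, a chain of the receptor for IL2 and IL15, stood at 365 CPM (302 to 437) and 222 CPM (192 to 256), and IL15 was highest in EIS vascular cells at 24.4 CPM. TNF stood at 278 and 401 CPM.

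Within T or NK cells, IL2RB was higher in both sows where a cell had a UMI of XCL1, a chemokine of NK and CD8 T cells that is no member, in a split chosen after the values were seen. Cells with an XCL1 UMI (87 of 231 in EL, 33 of 441 in EIS) held IL2RB at 599 CPM (472 to 751) in EL and 386 CPM (262 to 548) in EIS, against 215 (155 to 290) and 205 (174 to 240) CPM in cells without one. CX3CR1, the fractalkine receptor of circulating cytotoxic cells, went the other way, at 7.99 CPM (1 UMI) and 24.9 CPM (2 UMIs) with XCL1 and 138 and 143 CPM without. XCL1 itself was 4.80-fold higher in EL (3.98 to 5.80), at 1042 against 204 CPM.

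A list of 79 genes of the same pathways that are no members (among them NF-kB and JAK-STAT components, their inhibitors, atypical receptors, colony-stimulating factors, XCL1 and its receptor, and TNF family genes under other symbols such as EDA, CD40 and FAS) gave 56 features in the matrices. In epithelium 14 of 47 tested were higher in EIS, against 17.5% of all features, and 1 in EL, against 11.2%: EDA at 3.83-fold (1.03 to 32.1) with 2 UMIs in EIS. The largest with 30 or more UMIs in EIS were the granulocyte receptor CSF3R (18.1-fold, 11 to 30.2), SOCS3, the feedback inhibitor of interleukin-6 family signalling (18.1-fold, 15.3 to 21.3), and TNFAIP8 (13.2-fold, 10.5 to 16.6). CSF3R is also a marker of the neutrophil gate, so its level in the other classes depends in part on the gate. In ciliated cells 1 of 42 was called towards EIS, against 5.03%, SOCS3 at 4.06-fold (3.52 to 4.69). In macrophages 3 of 41 were higher in EIS, against 6.77%, and 0 in EL, against 5.73%: SOCS3 at 3.57-fold (2.53 to 5.18), CSF3R at 3.29-fold (1.22 to 12.5) and CISH, another STAT-induced inhibitor, at 5.68-fold (1.49 to 48.2) with 2 UMIs in EL. In T or NK cells 2 of 42 were higher in EIS, against 3.47%, SOCS3 at 3.12-fold (1.95 to 5.25) and NFKBIZ at 2.29-fold (1.43 to 3.83), and 1 in EL, XCL1, against 2.98%. SOCS3 was called towards EIS in all 4 classes, at 120, 191, 183 and 305 CPM in EIS epithelial, ciliated, T or NK and macrophage cells against 8.88, 49.3, 62.4 and 96.3 CPM in EL. Its EIS levels were 0.564, 0.895, 0.859 and 1.43 times that of the whole library.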

How the data were processed

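The deposited matrices hold UMI counts per gene and cell barcode. Per the submitters' processing notes they were made with Cell Ranger 2.1.1, while the deposited file headers name cellranger 6.1.0. Neither genome build nor annotation is given in the sources used here, so no positions are printed. The members and lists were chosen with earlier results of these data known.

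Cells with at least 500 UMIs and 300 genes were kept, and the highest Scrublet scores (scanpy 1.11.5; 0.8% per 1000 barcodes) were removed as doublets, 933 in EL and 601 in EIS, because the automatic threshold marked 0 and 1. A cell joined the non-epithelial class for which it showed most markers, at least 2, each at or above its library level. The markers of that class also had to take at least 0.1% of its UMIs. Cells without enough markers for any such class were SLPI-rich where the 3 secretion genes took at least 30% of UMIs. Of the rest, cells with at least 2 epithelial markers, each at 0.5 times its library level or more, were epithelial. The epithelial class is therefore what the other gates left. Ties (23 and 570 cells) and cells with fewer markers, 1429 and 1791 in all, stayed ungated. The limits of the gate were set with cell counts in view. CD247 was left out of the T or NK markers. Counts were summed per library and class. Intervals are exact Poisson for levels, Clopper-Pearson for shares and conditional binomial for ratios. A gene at 0 was compared at a floor of 3 UMIs.

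Members were named by rule: up to 5 called members per class and direction by fold with at least 30 UMIs in the higher library, the 4 highest levels per class and library, and their known ligands or receptors. Others named were chosen after their values were seen. Alternatives changed the gate, depth and gene minimums, doublets, scaling (edgeR 4.0.16 TMM), thinning and free RNA, and 2 alternatives were chosen after seeing the data: cells under 5% SLPI, ACP5 and UABP-2, and macrophages with no MRC1 or LYVE1 UMI. The calling step was tested on simulated data. The values of 1 member are not reported here.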

Additional observations from a re-analysis of the deposited data

Results flagged for a closer look

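CXCL8, a neutrophil attractant, lay on opposite sides of the median gene in the 2 epithelial-type classes: its log2 ratio of EL over EIS relative to the median gene was 1.82 in ciliated and -2.61 in epithelial cells. The epithelial value was 0.039 among cells with under 5% of UMIs from SLPI, ACP5 and UABP-2, on 44 UMIs in EL and 2 in EIS. The ciliated one was not called without doublet removal (0.90) or among cells thinned to 1000 UMIs (0.78). TNFSF13B (BAFF) lay on 1 side of the median gene in macrophages, at 1.27, and on the other in epithelial and ciliated cells, at -2.39 and -1.58. Its macrophage value was 0.16 among cells with no UMI of MRC1 or LYVE1, 0.80 among thinned cells and 0.82 among cells with under 5% secretion UMIs, and was called in none of these. With 1 library per group, neither difference between classes was tested.

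Some members with at least 30 UMIs in the cells that no class took stood there at 2 or more times their level in the whole library. In EL these were TNFRSF1B at 20.8 CPM, IL31RA at 29.4 CPM and CXCR4 at 41.6 CPM. In EIS they were CXCL8 at 40.6 CPM, CXCR2 at 26.3 CPM and IL18 at 38.3 CPM.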

How the results depend on the processing

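Of the 58 results for single members, 41 kept their call (towards EL, towards EIS or none) under every alternative run for them. Direction was not compared for a member called in neither setting. CXCL2 in macrophages, for instance, lay towards EL over the whole class and 1.94-fold towards EIS among cells with no MRC1 or LYVE1 UMI, called in neither. Called members that changed direction were CXCL8 in epithelium and CCL2 in macrophages. CXCL8 stood at a log2 of 0.039 among cells under 5% SLPI, ACP5 and UABP-2, on 2 UMIs in EIS, too few to show a direction. CCL2 stood at 1.36 among cells with no MRC1 or LYVE1 UMI. The cause was not tested. Both settings were chosen after seeing the data.

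The counts below are given without the number tested or the share over all features in each setting. A change in a count can therefore not be told apart from a change in those. Thinning to 1000 UMIs gave the lowest counts in several classes. Members higher in EIS numbered 11 in epithelium and 1 in macrophages, members higher in EL 2 in epithelium, 0 in ciliated cells and 2 in macrophages, and pathway genes 0 (EIS, macrophage), 2 (EL, ciliated) and 0 (EL, epithelium). A gene minimum of 50 UMIs gave 13 epithelial members higher in EIS and 2 macrophage members higher in EL, and a minimum of 10 gave 2 T or NK members higher in EL. With no filter on low counts, 8 ciliated and 0 T or NK members were higher in EIS and 3 T or NK members in EL, with 2 (T or NK), 0 (epithelium) and 1 (macrophage) pathway genes higher in EL. Without doublet removal, ciliated members numbered 8 (EIS) and 4 (EL), T or NK members 1 (EL), and pathway genes 1 (EIS, T or NK) and 2 (EIS, ciliated).

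With 1 marker needed, 4 ciliated and 2 T or NK members were higher in EL, and pathway genes numbered 4 (EIS, T or NK) and 0 (EL, epithelium). With 3 needed, 1 T or NK member was higher in EL and 1 T or NK pathway gene in EIS. Removing 10% as free RNA gave 3 ciliated and 0 T or NK members higher in EIS and 0 epithelial pathway genes higher in EL. No centring gave 0 T or NK members higher in EIS and 2 pathway genes higher in EL. Cells under 5% of the secretion genes gave 8 macrophage and 0 T or NK members higher in EIS, 4 ciliated and 1 macrophage members higher in EL, and 0 (epithelium) and 1 (macrophage) pathway genes higher in EL. Macrophages with no MRC1 or LYVE1 UMI gave 8 members higher in EIS and 2 in EL. A minimum of 1000 UMIs per cell gave 2 ciliated pathway genes higher in EIS and 0 epithelial ones in EL.

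The log2 ratio of class shares, EL over EIS, was 2.32 for ciliated cells, and 2.58, 2.02 and 2.12 with 1 marker, 3 markers and 1000 UMIs per cell. It was -2.57 for macrophages, and -2.05, -2.91 and -2.88 under the same settings, and 2.86 for epithelium, and 3.08 with 1000 UMIs per cell. No paired analysis was possible because each group is 1 library, and for the same reason no library could be left out. Depth limited EL macrophages and T or NK cells most.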
